A study of Mus musculus with 15 samples.

Results

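Livers of mice on a high-fat diet that received no test agent (HFD-NS) were compared with livers of the group labelled SD-NS, taken here as standard diet. The members are the 3 HFD-NS libraries (replicates 12, 13 and 16) and the 3 SD-NS libraries (replicates 6, 7 and 8), chosen by their sample labels, and they make up 6 of the 15 libraries of the series. The study measured polyadenylated RNA from mouse liver by RNA sequencing. Its other 3 groups, also of 3 libraries on the high-fat diet, received resmetirom, the agent Gc337 directed at the kinase STK25, or belong to a group labelled only 338. They are not compared here, but they entered the fit below through the low-count filter, the scaling and the estimate of the spread. The labels used here give the tissue and the group, and do not spell out SD or NS or give the strain, sex, age, diet composition, length of feeding, feeding state or time of sampling. Differences in any of these other than sex cannot be told apart from the diet. No allele is named for any of the 6 animals, and nothing there says whether the libraries of a group come from separate cages or litters. The p-values therefore set the difference between HFD-NS and SD-NS only against the spread between libraries within groups. That spread was estimated over all 15 libraries of the series, those of the other groups included.

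The liver takes up fatty acids, burns them in mitochondria and peroxisomes, stores them as triglyceride in lipid droplets and secretes them in lipoproteins. In fasting, low insulin and the fatty acid receptor PPARα favour oxidation and glucose output, while feeding favours glycolysis and fat synthesis through insulin, SREBP-1c and related factors. Prolonged overfeeding with fat leads in mice to steatosis, which can be joined by inflammation and by deposition of extracellular matrix.

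Libraries held 3873903 to 9797743 counts, and 14757 to 16063 genes had at least 1 count. Log2 CPM (counts scaled to library size by TMM) of libraries within a group correlated across genes at a Pearson's r of 0.979 to 0.986, and the libraries of a group differed by more than sampling noise, so none was counted as a copy of another. The hepatocyte marker Alb was measured at 109897, 92457 and 86977 CPM in SD-NS and 80124, 78169.9 and 89703 CPM in HFD-NS. These groups overlapped, and the difference did not pass the test (log2 fold change -0.22 ± 0.16, adjusted p = 0.321). Of 11 tested members of the list "Defining hepatocyte genes", 1 was called higher (9.09%) and 4 lower (36.4%). The shares over all genes were 12% and 16.1%. The number lower was 5 under limma-voom and 1 with SD-NS replicate 7 and HFD-NS replicate 13 left out. Kdm5d, a Y-linked gene, was present in every library at 19.4 to 26.6 CPM, and Xist, which silences 1 X chromosome in females, was at most 0.350 CPM, so all 6 animals read as male. Of 4 tested sex-chromosome genes, edgeR called 0 higher and 2 lower in HFD-NS (50%, against 16.1% over all genes). These were Ddx3y (log2 fold change -0.48, adjusted p = 0.00185) and Uty (log2 fold change -0.345, adjusted p = 0.0466). The call of Uty was lost under DESeq2 and limma-voom. Stk25, the target of the study's agent, was measured at 50.6, 53.3 and 47.8 CPM in SD-NS and 48.6, 43.7 and 47.3 CPM in HFD-NS, groups that overlapped with no call (log2 fold change -0.12 ± 0.11, adjusted p = 0.428).

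Of 13189 genes tested, 1589 rose in HFD-NS (12%) and 2122 fell (16.1%), at an adjusted p under 0.05 in edgeR's quasi-likelihood test, which makes 28.1% called in either direction. Errors after ± are standard errors of the log2 fold change, derived from the test statistic of the fit over all 15 libraries. They are therefore not the spread of the 3 libraries in each group. Exons of some named genes overlap another gene, and these share reads: Lgals4 over 67.4% of its length (with Lgals6), Mup7 over 51.7% (Mup15), Stk25 over 23.1% (Farp2), Apoa2 over 15.3% (Tomm40l), Cd163 over 21.2% and Ccn2 over 6.16%. At least 2-fold rises numbered 592 (4.49%) and at least 2-fold falls 292 (2.21%), and 169 rises against 58 falls were 4-fold or more (2 or more on the log2 scale). All 3 HFD-NS libraries lay above all SD-NS libraries for 2715 genes (20.6%) and below them for 3190 (24.2%), in total 44.8%, so a lack of overlap is common in these data. Most genes named below were chosen by a rule that requires no overlap, so for them its absence is not a separate result. The median log2 fold change over all genes tested was -0.018. Without SD-NS replicate 7 the number of rises was 1054. On TPM recomputed from the counts, 1984 genes rose and 1098 fell (64.4% of calls higher), and with no filter on low counts 1722 rose and 1511 fell (53.3%), against 42.8% higher in the fit reported here.

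**Figure D1:**
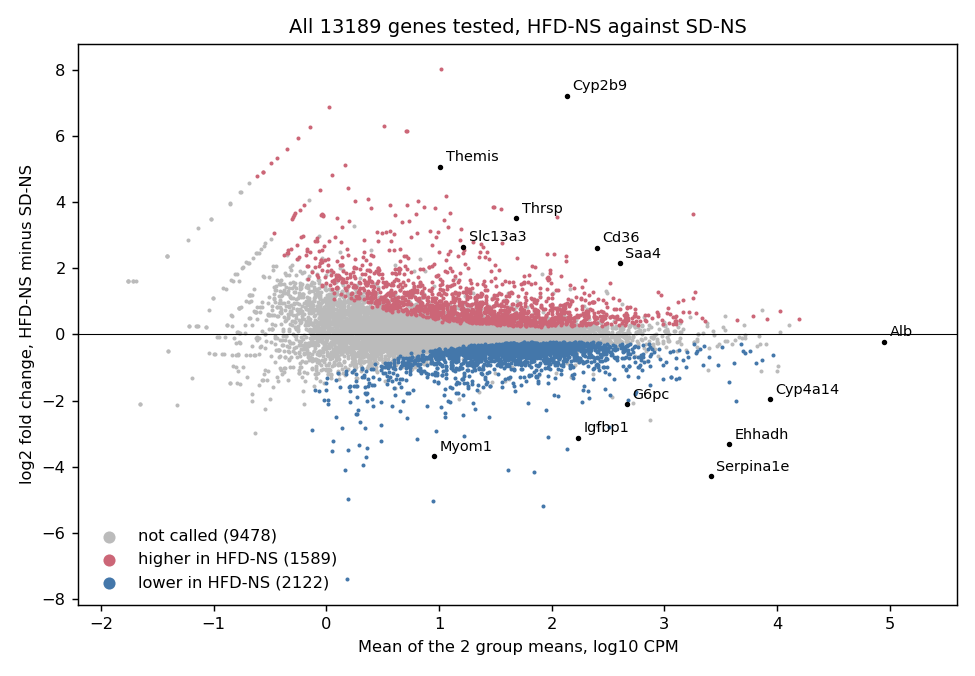
Mean level (log10 of CPM) against log2 fold change of HFD-NS minus SD-NS for the genes tested, each point a gene (13186 drawn, with 3 at 0 in all 6 libraries left out). Red points were called higher (1589) and blue points lower (2122). Among highly expressed genes, Ehhadh and Cyp4a14 lie far below 0, and Cyp2b9 lies near the top.

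**Figure D2:**
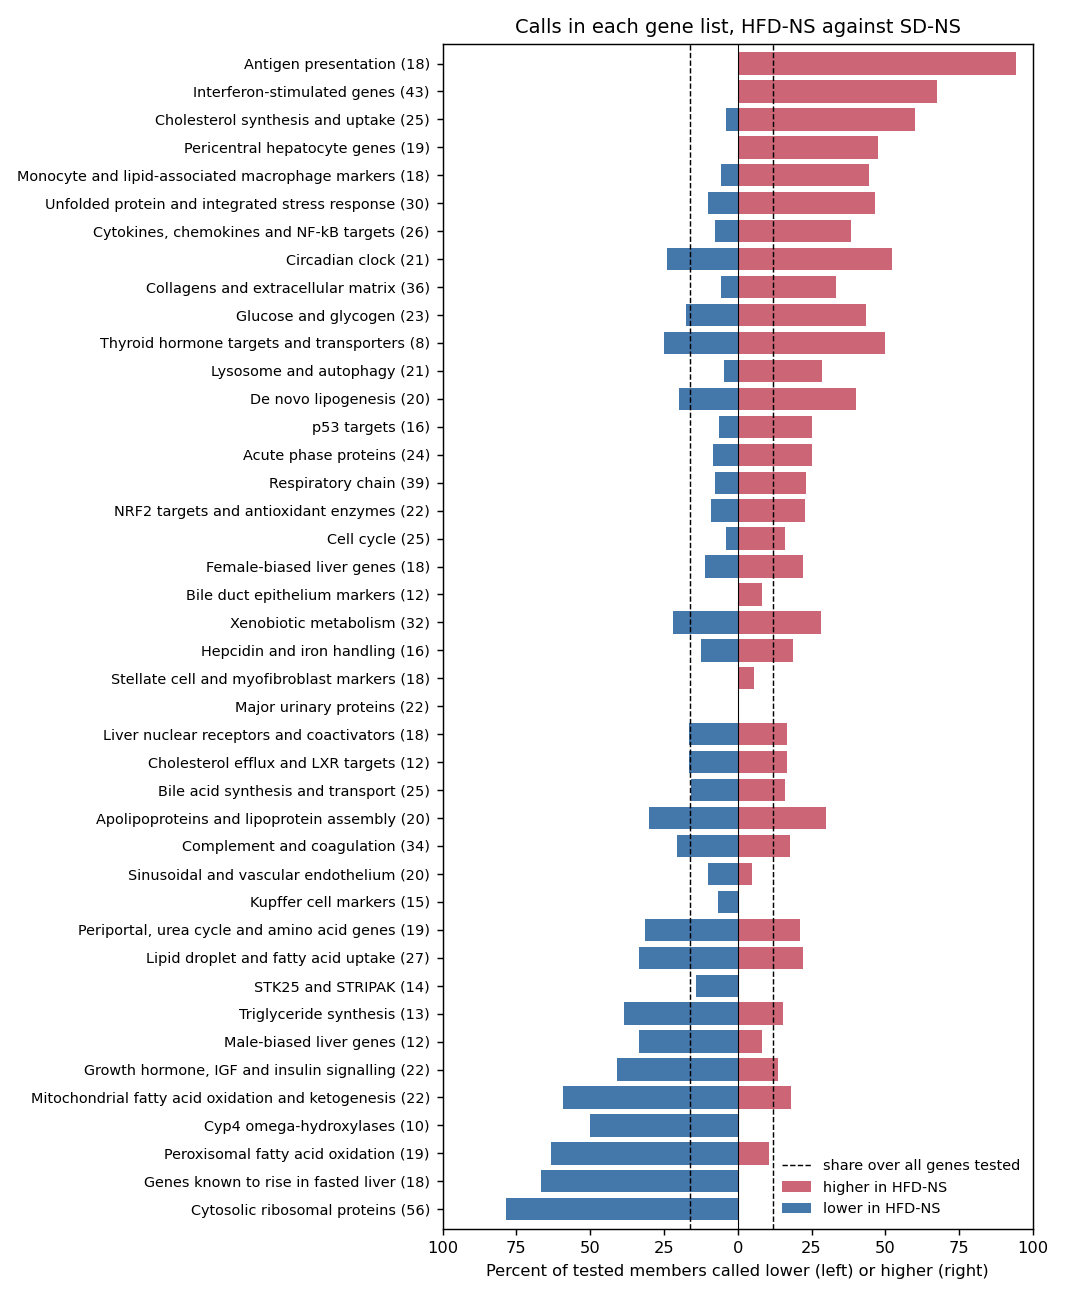
Percent of the tested members of each gene list called higher (red, right) or lower (blue, left) in HFD-NS, with the number tested in brackets. Dashed lines mark the shares over all genes, 12% higher and 16.1% lower. Antigen presentation stands at the top with 94.4% higher, and cytosolic ribosomal proteins at the bottom with 78.6% lower.

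Genes that burn fatty acids fell more often than they rose. Of 19 tested members of the list "Peroxisomal fatty acid oxidation", 2 rose (10.5%) and 12 fell (63.2%), with a median log2 fold change of -0.38. Of 22 tested members of the list "Mitochondrial fatty acid oxidation and ketogenesis", 4 rose (18.2%) and 13 fell (59.1%), with a median log2 fold change of -0.33. The shares over all genes were 16.1% lower and 12% higher. For the lists on fasting, Cyp4, interferon, antigen presentation, pericentral and ribosomal protein genes, where no member was called in a direction, edgeR gave 0 members there at an unadjusted p under 0.05, and DESeq2 and limma-voom called 0. Summed over its members, the peroxisomal list stood at 25019 to 26276 CPM in SD-NS and 13763 to 15072 in HFD-NS. With SD-NS replicate 7 and HFD-NS replicate 13 both left out, 7 of the peroxisomal genes were called lower. On recomputed TPM 8 peroxisomal and 10 mitochondrial genes fell, and without the low-count filter 9 and 10. The number of mitochondrial rises was 1 without SD-NS replicate 7.

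Acot2 (mm39 chr12:84034635-84040649), a mitochondrial acyl-CoA thioesterase, was measured at 133, 143 and 166 CPM in SD-NS and 35, 31.9 and 24.2 CPM in HFD-NS. The groups of Acot2 did not overlap, and HFD-NS replicate 16 was lowest (log2 fold change -2.28 ± 0.26, adjusted p = 5.05e-05). Abcd3, which carries long-chain acyl-CoA into peroxisomes, stood at 1744, 1691 and 1634 CPM in SD-NS and 861, 844 and 819 CPM in HFD-NS. The spread of Abcd3 within each group was small against the distance between them (log2 fold change -1.01 ± 0.1, adjusted p = 1.65e-06). Acsl1, which activates long-chain fatty acids to acyl-CoA, stood at 4067, 4176 and 3604 CPM in SD-NS and 2590.3, 1719 and 1942 CPM in HFD-NS, again with no overlap (log2 fold change -0.92 ± 0.16, adjusted p = 0.000353). Hadhb, a subunit of the mitochondrial trifunctional protein, was measured at 297, 355 and 305 CPM in SD-NS and 212, 185 and 182 CPM in HFD-NS (log2 fold change -0.72 ± 0.095, adjusted p = 2.3e-05). Acot4, a peroxisomal thioesterase acting on dicarboxylic acyl-CoAs, fell with a log2 fold change of -1.48 ± 0.23 (adjusted p = 0.00053), from 138, 144 and 123 CPM in SD-NS to 45.7, 55.4 and 44.9 CPM in HFD-NS. In contrast, Pecr, a peroxisomal enoyl-CoA reductase, rose from 124, 80.1 and 96.2 CPM in SD-NS to 171, 193 and 201 CPM in HFD-NS (log2 fold change 0.91 ± 0.17, adjusted p = 0.00128). Hadh also rose among the mitochondrial genes, from 385, 323 and 355 CPM in SD-NS to 566, 558 and 544 CPM in HFD-NS (log2 fold change 0.65 ± 0.12, adjusted p = 0.000493).

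The Cyp4 family, which oxidises the far end of fatty acids, showed the same direction. Of 10 tested members of the list "Cyp4 omega-hydroxylases", 0 rose (0%) and 5 fell (50%), with a median log2 fold change of -1.14. Cyp4a14 (chr4:115343397-115353338) was measured at 13375, 13899 and 13975 CPM in SD-NS and 3132, 4106 and 3362 CPM in HFD-NS, a gap far wider than the spread of either group (log2 fold change -1.96 ± 0.41, adjusted p = 0.00471). In TPM, a level scaled by transcript length and library size, the mean of Cyp4a14 was 9938 in SD-NS and 2766 in HFD-NS. Cyp4a10 was at 5606, 5273 and 5355 CPM in SD-NS and 1817, 2156 and 2049 CPM in HFD-NS (log2 fold change -1.43 ± 0.16, adjusted p = 3.7e-06), and on the TPM scale its mean was 4676 in SD-NS and 1876 in HFD-NS. Cyp4a31 fell as well (log2 fold change -2.08 ± 0.16, adjusted p = 1.42e-07). These are close gene copies whose shared reads make the split between them uncertain. The DR1 element that PPAR and other nuclear receptors bind, searched on both strands, was found in 0 of 14 peroxisomal, 0 of 17 mitochondrial and 0 of 5 Cyp4 promoters of RefSeq (GRCm38.p6, 300 bases around the start of a gene), against 0.333% of tested genes with a promoter, which says only that these letters are not in this window. Ppara, the receptor that drives many of these genes, was itself lower at 525, 538 and 597 CPM in SD-NS and 348, 432 and 420.3 CPM in HFD-NS (log2 fold change -0.47 ± 0.12, adjusted p = 0.0057), a call lost on recomputed TPM (adjusted p = 0.0802).

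Genes that rise in the fasted liver were lower in HFD-NS or were not called. Of 18 tested members of the list "Genes known to rise in fasted liver", 0 rose (0%) and 12 fell (66.7%), with a median log2 fold change of -1.06. With SD-NS replicate 7 and HFD-NS replicate 13 left out the count was 7 and G6pc was not called (adjusted p = 0.0698). The count was 8 without replicate 7 of SD-NS or replicate 13 or 16 of HFD-NS, and 8 without the low-count filter. G6pc, the last step of hepatic glucose output, was measured at 747, 815 and 704 CPM in SD-NS and 169, 174 and 179.5 CPM in HFD-NS. The 3 values of G6pc within each group lay close together and the groups were far apart (log2 fold change -2.12 ± 0.47, adjusted p = 0.00768). Igfbp1, an IGF-binding protein that insulin represses, was at 253, 309 and 363 CPM in SD-NS and 39.4, 48.3 and 18.2 CPM in HFD-NS. HFD-NS replicate 16 had the least Igfbp1, and no HFD-NS library came near SD-NS (log2 fold change -3.13 ± 0.42, adjusted p = 0.000334). Irs2, an insulin receptor substrate that insulin also represses, was at 57.2, 56.6 and 50.3 CPM in SD-NS and 19.7, 16.1 and 18.2 CPM in HFD-NS (log2 fold change -1.6 ± 0.17, adjusted p = 2.89e-06). Igfbp2 was at 496, 360.3 and 509 CPM in SD-NS and 146, 157 and 129.6 CPM in HFD-NS (log2 fold change -1.66 ± 0.26, adjusted p = 0.000543). The list of growth hormone, IGF and insulin genes, which holds Irs2 and both binding proteins, counted 3 higher (13.6%) and 9 lower (40.9%) among 22 tested members (median log2 fold change 0.02). Among its rises, Ghr, the growth hormone receptor, was at 461, 460.2 and 397 CPM in SD-NS and 659, 604 and 706 CPM in HFD-NS (log2 fold change 0.58 ± 0.14, adjusted p = 0.006). Igfbp4 rose from 888, 897 and 867 CPM in SD-NS to 1205, 1335 and 1515 CPM in HFD-NS (log2 fold change 0.61 ± 0.12, adjusted p = 0.00104).

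Fat synthesis and glycolysis were divided. Of 20 tested members of the list "De novo lipogenesis", 8 rose (40%) and 4 fell (20%), with a median log2 fold change of 0.31. Thrsp, a lipogenic regulator also named Spot 14, was at 9.45, 6.22 and 7.31 CPM in SD-NS and 94.2, 44.6 and 129 CPM in HFD-NS. HFD-NS replicate 13 had the least Thrsp of its group and still exceeded every SD-NS library (log2 fold change 3.51 ± 0.46, adjusted p = 0.000283). Its partner Mid1ip1 stood at 6.26, 1.94 and 6.47 CPM in SD-NS and 13.9, 13.3 and 19.3 CPM in HFD-NS, without overlap (log2 fold change 1.66 ± 0.32, adjusted p = 0.00139). Srebf1, which encodes SREBP-1c, was at 13.6, 10.7 and 7.03 CPM in SD-NS and 17.6, 26.4 and 42 CPM in HFD-NS (log2 fold change 1.4 ± 0.32, adjusted p = 0.00563). HFD-NS replicate 12 was the lowest of its group for Srebf1 and above every SD-NS library.

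The falls of that list numbered 2 without HFD-NS replicate 13, without HFD-NS replicate 16, on recomputed TPM and with SD-NS replicate 7 and HFD-NS replicate 13 both left out, and the rises numbered 8 in each of these. Acacb, the acetyl-CoA carboxylase at the mitochondrial surface, was at 90.3, 87.5 and 85.2 CPM in SD-NS and 51.3, 29.6 and 32.4 CPM in HFD-NS (log2 fold change -1.22 ± 0.17, adjusted p = 9.76e-05). Elovl5, an elongase of polyunsaturated fatty acids, was at 1999, 1961 and 2230.3 CPM in SD-NS and 1237, 926 and 939 CPM in HFD-NS (log2 fold change -1.0 ± 0.14, adjusted p = 5.59e-05). Both genes kept their call in all of these settings, and HFD-NS replicate 12 was the highest of its group for both. The glucose and glycogen list counted 10 higher (43.5%) and 4 lower (17.4%) among 23 tested members (median log2 fold change 0.26). Slc2a2, the glucose transporter GLUT2, was at 166, 137 and 164 CPM in SD-NS and 259, 293 and 371 CPM in HFD-NS (log2 fold change 0.98 ± 0.13, adjusted p = 2.08e-05), and Ugp2, which makes UDP-glucose, rose from 367, 301 and 345 CPM in SD-NS to 607, 531 and 650.0 CPM in HFD-NS (log2 fold change 0.82 ± 0.13, adjusted p = 0.000173). Gys2, liver glycogen synthase, fell from 256, 251 and 272 CPM in SD-NS to 157, 129 and 159 CPM in HFD-NS (log2 fold change -0.81 ± 0.091, adjusted p = 4.79e-06), and Ldha, lactate dehydrogenase A, fell from 1465, 1538 and 1699 CPM in SD-NS to 981, 1017 and 865 CPM in HFD-NS (log2 fold change -0.72 ± 0.11, adjusted p = 7.82e-05). The direction within this list therefore differed between single enzymes.

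Triglyceride synthesis genes moved both ways. Of 13 tested members of the list "Triglyceride synthesis", 2 rose (15.4%) and 5 fell (38.5%), with a median log2 fold change of -0.01. Mogat1, which makes diacylglycerol from monoacylglycerol, was near the floor in SD-NS and was measured at 1.33, 0.389 and 0.844 CPM in SD-NS and 16.2, 8.57 and 10.4 CPM in HFD-NS. Even the lowest HFD-NS library exceeded the highest SD-NS library several-fold (log2 fold change 3.66 ± 0.4, adjusted p = 3.32e-06), and without SD-NS replicate 6 the log2 fold change was 4.30. Gpat4, a glycerol phosphate acyltransferase, was at 394, 431 and 407 CPM in SD-NS and 173, 192 and 191 CPM in HFD-NS (log2 fold change -1.14 ± 0.098, adjusted p = 2.65e-07). Lpin2, a phosphatidate phosphatase, was at 774, 869 and 843 CPM in SD-NS and 319, 389 and 303 CPM in HFD-NS (log2 fold change -1.3 ± 0.16, adjusted p = 1.64e-05). Gpam and Dgat1, an acyltransferase at the start of the pathway and one at its end, fell by 0.69 (adjusted p = 0.000435) and 0.70 (adjusted p = 0.000559) on the log2 scale. In this list the rises lay in Mogat1 and Dgat2 and the falls in 5 other enzymes.

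Among lipid droplet and uptake genes, counts of 6 higher (22.2%) and 9 lower (33.3%) among 27 tested members (median log2 fold change 0.10) were found. Cd36 (chr5:17986688-18093957), a fatty acid transporter at the cell surface, was at 75.9, 64 and 71.2 CPM in SD-NS and 472, 467 and 362 CPM in HFD-NS. Its groups were widely separated (log2 fold change 2.62 ± 0.26, adjusted p = 1.76e-05). Fitm1, which helps droplets form, was at 3.33, 5.44 and 2.25 CPM in SD-NS and 30.1, 23 and 28.3 CPM in HFD-NS (log2 fold change 2.85 ± 0.36, adjusted p = 7.11e-05). Cidea, which fuses droplets and is scarce in normal liver, was at 0, 0.194 and 0 CPM in SD-NS and 43.1, 4.1 and 15.1 CPM in HFD-NS. All HFD-NS libraries held Cidea and SD-NS held almost none (log2 fold change 8.02 ± 1.7, adjusted p = 0.00366), but HFD-NS replicate 12 held most of it. Its log2 fold change was 6.91 without that library, 7.28 without SD-NS replicate 6 and 10.16 without SD-NS replicate 7. The call was lost in a fit of the 6 libraries alone (adjusted p = 0.0619) and under limma-voom (adjusted p = 0.0932). Pnpla2, the triglyceride lipase ATGL, was at 92, 90.8 and 101 CPM in SD-NS and 48.2, 49.9 and 51.5 CPM in HFD-NS (log2 fold change -0.92 ± 0.097, adjusted p = 2.4e-06). Plin5, a droplet coat protein of oxidising tissues, was at 152, 134 and 159 CPM in SD-NS and 80.9, 80.7 and 82.6 CPM in HFD-NS (log2 fold change -0.86 ± 0.21, adjusted p = 0.00859). Pparg, a receptor that favours fat storage, was at 5.59, 7.78 and 4.22 CPM in SD-NS and 14.1, 14.3 and 10.4 CPM in HFD-NS, with no overlap (log2 fold change 1.11 ± 0.23, adjusted p = 0.0014).

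**Figure D3:**
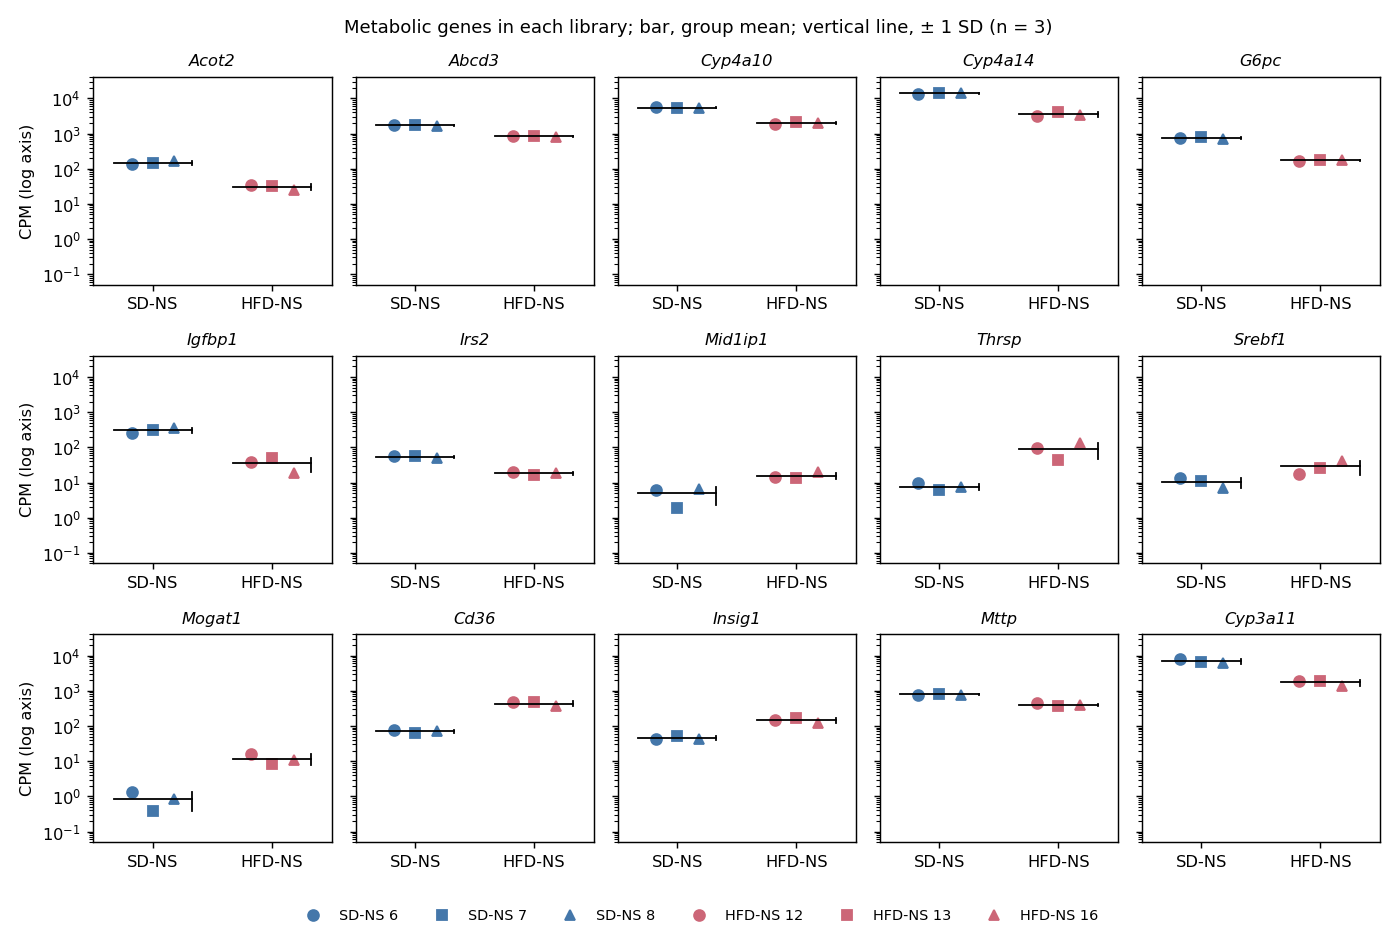
CPM (log axis) of 15 metabolic genes in each of the 6 libraries, SD-NS in blue and HFD-NS in red, with group means and 1 SD. Acot2, Cyp4a14, G6pc, Igfbp1 and Cyp3a11 are lower in all HFD-NS libraries, and Mid1ip1, Thrsp, Mogat1, Cd36 and Insig1 are higher in all of them.

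Most cholesterol genes rose. Of 25 tested members of the list "Cholesterol synthesis and uptake", 15 rose (60%) and 1 fell (4%), with a median log2 fold change of 0.62. Insig1, which retains the SREBP complex in the endoplasmic reticulum and is itself a target of SREBP, was at 41.4, 51.1 and 43.6 CPM in SD-NS and 144, 169 and 120.3 CPM in HFD-NS (log2 fold change 1.67 ± 0.23, adjusted p = 0.000219). Msmo1, a sterol methyl oxidase, was at 30, 28.6 and 26.2 CPM in SD-NS and 97.7, 86.2 and 66.4 CPM in HFD-NS (log2 fold change 1.56 ± 0.19, adjusted p = 2.79e-05). Sqle, squalene epoxidase, was at 9.59, 11.9 and 6.75 CPM in SD-NS and 33.5, 24.2 and 18.3 CPM in HFD-NS, with HFD-NS replicate 16 lowest of its group (log2 fold change 1.4 ± 0.23, adjusted p = 0.000459). For Mvd, mevalonate diphosphate decarboxylase, the levels were 0.399, 0.778 and 1.13 CPM in SD-NS and 8.41, 6.83 and 2.85 CPM in HFD-NS (log2 fold change 3.09 ± 0.52, adjusted p = 0.000378). These 4 genes were named by a rule that requires groups without overlap. Hsd17b7 was the only member that fell, at 108, 115 and 101 CPM in SD-NS and 53.6, 54.9 and 45.9 CPM in HFD-NS (log2 fold change -1.07 ± 0.14, adjusted p = 3.84e-05). The sterol regulatory element, with letters TCACNCCAC on either strand, was found in 1 of 17 promoters of the list and in 0 of the 10 called members with one, against 1.47% of tested genes.

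Lipoprotein genes moved both ways. The list counted 6 higher (30%) and 6 lower (30%) among 20 tested members (median log2 fold change 0.05). The number of rises was 3 without SD-NS replicate 7 or 8, and with SD-NS replicate 7 and HFD-NS replicate 13 left out there were 2 rises and 3 falls. Mttp, which loads triglyceride on apolipoprotein B, was at 771, 833 and 779 CPM in SD-NS and 436, 366 and 397 CPM in HFD-NS (log2 fold change -0.99 ± 0.1, adjusted p = 1.68e-06), and Apob itself was at 10292, 11774 and 11331 CPM in SD-NS and 7456, 7470.1 and 6651 CPM in HFD-NS (log2 fold change -0.63 ± 0.12, adjusted p = 0.00064). Apom, a carrier of sphingosine 1-phosphate in HDL, was at 215, 212 and 229 CPM in SD-NS and 78.2, 97.2 and 86.7 CPM in HFD-NS (log2 fold change -1.32 ± 0.29, adjusted p = 0.00579). All 3 were lower in every HFD-NS library. Apoa2, another protein of HDL, rose from 7356, 6208 and 6846 CPM in SD-NS to 9550.3, 8362 and 10080.3 CPM in HFD-NS (log2 fold change 0.46 ± 0.15, adjusted p = 0.0268), a call lost without SD-NS replicate 7 (adjusted p = 0.123) or 8 (0.0685 as adjusted p) and without HFD-NS replicate 12 (adjusted p = 0.0649) or 16 (0.102 as adjusted p). Angptl8, an inhibitor of lipoprotein lipase that rises with feeding, was at 5.46, 6.61 and 7.03 CPM in SD-NS and 20.3, 26.6 and 17.3 CPM in HFD-NS (log2 fold change 1.77 ± 0.34, adjusted p = 0.00204). Apoe rose from 14403, 12022 and 12574 CPM in SD-NS to 18366, 17272 and 18749 CPM in HFD-NS (log2 fold change 0.48 ± 0.12, adjusted p = 0.005), a call lost with SD-NS replicate 7 and HFD-NS replicate 13 left out (adjusted p = 0.0592).

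In bile acid synthesis and transport, counts of 4 higher (16%) and 4 lower (16%) among 25 tested members (median log2 fold change -0.15) were close to the shares over all genes, and the falls numbered 2 on recomputed TPM and 2 with SD-NS replicate 7 and HFD-NS replicate 13 left out. Akr1d1, the 5β-reductase of the pathway, was at 124, 79.5 and 94.8 CPM in SD-NS and 234, 295 and 285 CPM in HFD-NS (log2 fold change 1.44 ± 0.17, adjusted p = 2.08e-05). Slco1b2, a basolateral uptake carrier, rose from 1359, 1601 and 1483 CPM in SD-NS to 2359, 2227 and 2352 CPM in HFD-NS (log2 fold change 0.64 ± 0.11, adjusted p = 0.000359). Cyp39a1, an oxysterol hydroxylase, was at 106, 78.2 and 88.6 CPM in SD-NS and 34.3, 46.1 and 36.4 CPM in HFD-NS (log2 fold change -1.23 ± 0.23, adjusted p = 0.00154), and Abcb4, which exports phosphatidylcholine into bile, fell from 684, 759 and 689 CPM in SD-NS to 427, 399.6 and 364 CPM in HFD-NS (log2 fold change -0.84 ± 0.11, adjusted p = 2.02e-05). Cyp7a1, the rate-limiting enzyme, was at 39.8, 152 and 98.4 CPM in SD-NS and 255, 149.7 and 189 CPM in HFD-NS. SD-NS replicate 7 overlapped HFD-NS, and Cyp7a1 was not called (log2 fold change 1.04 ± 0.48, adjusted p = 0.135).

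Among targets of interferon no member was called lower. Of 43 tested members of the list "Interferon-stimulated genes", 29 rose (67.4%) and 0 fell (0%), with a median log2 fold change of 0.84. Many but not all of these genes hold a short promoter element, the core of the interferon-stimulated response element, with letters GAAANNGAA on either strand. In RefSeq promoters of GRCm38.p6 (300 bases around the start of a gene) it was present in 20 of 31 members with a promoter sequence, 64.5%, against 9.12% of all genes and 8.76% of tested genes with one. Among the 21 called members with a promoter, 14 held it. Part of the Gbp2 promoter is printed to show the element (capitals, here on the opposite strand), at chr3:142620560-142620658 on the plus strand of GRCm38.p6.
Gbp2: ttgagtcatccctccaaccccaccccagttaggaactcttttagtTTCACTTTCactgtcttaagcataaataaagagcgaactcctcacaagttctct
The match describes these letters only, and binding was not measured.

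Gbp2, an interferon-inducible GTPase, was measured at 3.59, 4.86 and 3.66 CPM in SD-NS and 7.71, 24.6 and 25.4 CPM in HFD-NS. HFD-NS replicate 12 had the least of its group, above all SD-NS libraries (log2 fold change 2.25 ± 0.44, adjusted p = 0.0023). Mx1, an antiviral GTPase, was at 1.46, 1.17 and 0.563 CPM in SD-NS and 2.57, 4.35 and 5.8 CPM in HFD-NS (log2 fold change 1.87 ± 0.41, adjusted p = 0.00208). HFD-NS replicate 12 was again lowest of its group. Of 18 tested members of the list "Antigen presentation", 17 rose (94.4%) and 0 fell (0%), with a median log2 fold change of 1.15. Psmb9, a subunit of the immunoproteasome, was at 3.2, 3.11 and 3.94 CPM in SD-NS and 11.7, 13 and 17.2 CPM in HFD-NS (log2 fold change 2.06 ± 0.25, adjusted p = 1.14e-05). H2-DMa, which loads peptide on MHC class II, was at 0.799, 0.778 and 0.844 CPM in SD-NS and 2.69, 2.61 and 2.95 CPM in HFD-NS (log2 fold change 1.76 ± 0.47, adjusted p = 0.0092). The SD-NS values of H2-DMa rest on few reads, so their closeness says little about the spread. The class II chain H2-Aa was at 14, 11.7 and 19.1 CPM in SD-NS and 26.3, 55.9 and 59.9 CPM in HFD-NS (log2 fold change 1.7 ± 0.41, adjusted p = 0.0113), a call that did not hold without SD-NS replicate 7 (adjusted p = 0.0526). With SD-NS replicate 7 and HFD-NS replicate 13 both left out, 10 interferon genes and 9 antigen presentation genes were called higher, and neither H2-DMa (adjusted p = 0.0586) nor H2-Aa (adjusted p = 0.113) was among them.

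Several chemokine genes rose from low levels. Of 26 tested members of the list "Cytokines, chemokines and NF-kB targets", 10 rose (38.5%) and 2 fell (7.69%), with a median log2 fold change of 0.88. Without SD-NS replicate 7 the number of rises was 6, and without both that library and HFD-NS replicate 13 it was 4. Ccl2, which attracts monocytes, was at 0.133, 0.583 and 0.281 CPM in SD-NS and 5.84, 4.97 and 3.16 CPM in HFD-NS. HFD-NS libraries were far above SD-NS (log2 fold change 3.82 ± 0.54, adjusted p = 3.9e-05), and without SD-NS replicate 7 the log2 fold change was 4.54. Cxcl9, a T cell chemokine induced by interferon gamma, was at 4.26, 8.55 and 6.19 CPM in SD-NS and 17.9, 36.9 and 69.2 CPM in HFD-NS, highest in HFD-NS replicate 16 (log2 fold change 2.75 ± 0.5, adjusted p = 0.00208) and with a log2 fold change of 2.14 without that library.

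Marker genes of immune cells were examined beside these results, since liver tissue holds several cell types and fewer cells of a type cannot be told apart from less RNA per cell. Of 18 tested members of the list "Monocyte and lipid-associated macrophage markers", 8 rose (44.4%) and 1 fell (5.56%), with a median log2 fold change of 1.31. The summed level of the list was 133 to 177 CPM in SD-NS and 210 to 308 CPM in HFD-NS. Cx3cr1, a chemokine receptor of monocyte-derived cells, was at 0.266, 0.778 and 0.844 CPM in SD-NS and 3.97, 7.45 and 3.48 CPM in HFD-NS, without overlap (log2 fold change 3.09 ± 0.6, adjusted p = 0.00116). The member that fell was Cd9 (log2 fold change -1.36, adjusted p = 4.04e-06), a call kept whichever library was left out. The list had 13 rises in a fit of the 6 libraries alone and 4 with SD-NS replicate 7 and HFD-NS replicate 13 left out. Markers of resident Kupffer cells counted 0 higher (0%) and 1 lower (6.67%) among 15 tested members (median log2 fold change 0.08). At an unadjusted p under 0.05, 1 was higher, and 1 was called higher with DESeq2 and 0 with limma-voom. Clec4f, a defining Kupffer gene, was at 58.3, 40.1 and 66.7 CPM in SD-NS and 48.9, 38.1 and 28.7 CPM in HFD-NS, with overlap and no call (log2 fold change -0.51 ± 0.5, adjusted p = 0.491). Cd163, a scavenger receptor of resident macrophages, was the one that fell, at 23.6, 14.6 and 19.7 CPM in SD-NS and 7.82, 5.59 and 1.16 CPM in HFD-NS (log2 fold change -2.01 ± 0.46, adjusted p = 0.00624), and its call was lost in a fit of the 6 libraries alone (adjusted p = 0.059). The summed Kupffer list overlapped, at 410 to 527 CPM in SD-NS and 464 to 524 CPM in HFD-NS. Neutrophil markers summed to at most 17.0 CPM, and T, NK and B cell markers to at most 19.3 CPM, with groups that overlapped. Only 3 of 9 neutrophil markers were tested, with 0 called. Of 17 T, NK and B cell markers 5 were tested, with 1 called higher (20%, against 12% over all genes) and 0 lower. That was Cd8a (log2 fold change 2.84, adjusted p = 0.0375), a call lost under limma-voom and without any of 4 single libraries. The part of these cells in the immune results was not tested.

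Matrix genes rose in part. Of 36 tested members of the list "Collagens and extracellular matrix", 12 rose (33.3%) and 2 fell (5.56%), with a median log2 fold change of 0.72. Col1a1, the main fibrillar collagen of scar, was at 1.6, 0.972 and 2.81 CPM in SD-NS and 17.5, 18.4 and 8.64 CPM in HFD-NS. The 3 HFD-NS values of Col1a1 all exceeded SD-NS (log2 fold change 3.12 ± 0.81, adjusted p = 0.0153), though the call did not hold without SD-NS replicate 6 (adjusted p = 0.064) or replicate 7 (0.0642 as adjusted p). Mmp13, a collagenase, was at 0.266, 0.194 and 0.281 CPM in SD-NS and 1.4, 4.1 and 2.11 CPM in HFD-NS (log2 fold change 3.26 ± 0.78, adjusted p = 0.00378). Ccn2, a growth factor-binding matrix protein, fell, at 22.2, 12.4 and 21.7 CPM in SD-NS and 6.54, 5.09 and 7.17 CPM in HFD-NS (log2 fold change -1.58 ± 0.22, adjusted p = 5.44e-05). The number of matrix rises was 20 in a fit of the 6 libraries alone, 6 without SD-NS replicate 6, 7 without SD-NS replicate 7, 7 without HFD-NS replicate 13, and 2 with SD-NS replicate 7 and HFD-NS replicate 13 both left out, where neither Mmp13 (adjusted p = 0.0673) nor Col1a1 (adjusted p = 0.126) was called. Markers of stellate cells and myofibroblasts counted 1 higher (5.56%) and 0 lower (0%) among 18 tested members (median log2 fold change 0.32). None was called lower by edgeR or DESeq2, against 1 by limma-voom and 2 at an unadjusted p under 0.05. Their summed level overlapped, at 455 to 544 CPM in SD-NS and 517 to 581 CPM in HFD-NS. Acta2, the smooth muscle actin of activated stellate cells, was at 0.533, 0.194 and 0.281 CPM in SD-NS and 1.87, 0.621 and 0.632 CPM in HFD-NS, not called (log2 fold change 1.46 ± 0.8, adjusted p = 0.175). Bile duct markers counted 1 higher (8.33%) and 0 lower (0%) among 12 tested members (median log2 fold change -0.17), and endothelial markers 1 higher (5%) and 2 lower (10%) among 20 tested members (median log2 fold change 0.08).

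**Figure D4:**
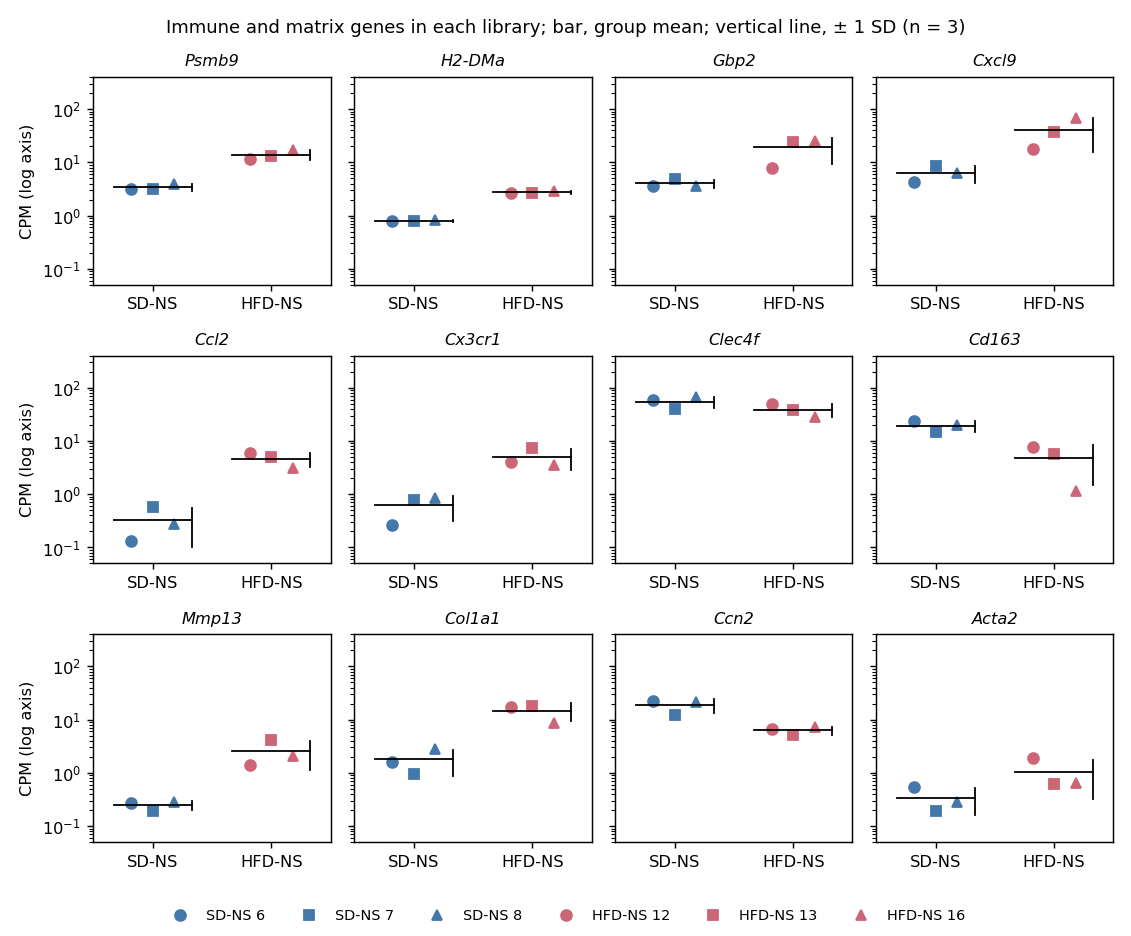
CPM (log axis) of 12 immune and matrix genes in each library, SD-NS in blue and HFD-NS in red, with group means and 1 SD. Psmb9, H2-DMa, Gbp2, Ccl2, Cx3cr1, Mmp13 and Col1a1 are higher in all HFD-NS libraries, Clec4f overlaps, and Cd163 and Ccn2 are lower.

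Genes of the circadian clock moved in both directions. Of 21 tested members of the list "Circadian clock", 11 rose (52.4%) and 5 fell (23.8%), with a median log2 fold change of 0.72. The clock runs on activators (Arntl with Clock or Npas2) that bind E-boxes with letters CACGTG, and on repressors and output genes that those activators drive. Among 18 clock genes with a RefSeq promoter, 5 held CACGTG (27.8%, against 8.95% of all genes and 11.8% of tested genes with one). Of these 5, Tef, Ciart and Bhlhe41 rose, Cry1 fell and Per1 was not called. The ROR and REV-ERB element TAGGTCA lay in 2 of the 18 (11.1%, against 2.58% of tested genes), and the D-box TTATGTAA in 1 (5.56%, against 0.696%). Ciart is printed because it holds 3 E-boxes CACGTG (capitals), at chr3:95882229-95882389 on the minus strand of GRCm38.p6.
Ciart: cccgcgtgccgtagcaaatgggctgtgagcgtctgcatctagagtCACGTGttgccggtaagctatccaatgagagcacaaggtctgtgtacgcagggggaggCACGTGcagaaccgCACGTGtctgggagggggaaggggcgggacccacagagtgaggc
Ciart, a repressor of the clock activators, was measured at 0.799, 0.778 and 0.844 CPM in SD-NS and 2.69, 4.97 and 17.8 CPM in HFD-NS. SD-NS values rest on few reads, and HFD-NS values spread widely, with replicate 16 highest (log2 fold change 3.4 ± 0.87, adjusted p = 0.0126). That call was lost without SD-NS replicate 6 (adjusted p = 0.0575) or 7 (0.0519 as adjusted p), and the log2 fold change was 2.22 without HFD-NS replicate 16. Adjusted p-values were 0.0912 when the 6 libraries were fitted alone and 0.064 under limma-voom.

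Several clock genes kept their call whichever library was left out. Tef, an output transcription factor, was at 39, 27 and 35.4 CPM in SD-NS and 58.5, 92.7 and 140.4 CPM in HFD-NS (log2 fold change 1.52 ± 0.31, adjusted p = 0.00391). Bhlhe40, a repressor, was at 27, 31.1 and 28.7 CPM in SD-NS and 80.1, 72.4 and 104 CPM in HFD-NS (log2 fold change 1.57 ± 0.26, adjusted p = 0.000873). Nr1d2, a repressor paired with Nr1d1, was at 39.4, 54.4 and 56.3 CPM in SD-NS and 76.4, 101 and 109 CPM in HFD-NS (log2 fold change 0.95 ± 0.21, adjusted p = 0.00503). On the falling side, Arntl, also called Bmal1, was at 31.3, 33.2 and 36 CPM in SD-NS and 22.3, 12.4 and 8.96 CPM in HFD-NS (log2 fold change -1.2 ± 0.3, adjusted p = 0.0105). HFD-NS replicate 12 was the highest of its group for Arntl and replicate 16 the lowest, the reverse of their order for Tef. Npas2 was at 12.4, 7.58 and 6.75 CPM in SD-NS and 5.37, 1.99 and 1.16 CPM in HFD-NS (log2 fold change -1.69 ± 0.4, adjusted p = 0.00484), with a log2 fold change of -2.55 without HFD-NS replicate 12. Rora, an activator of Arntl, was at 186, 204 and 183 CPM in SD-NS and 94.1, 106 and 93 CPM in HFD-NS and did not spread in this way (log2 fold change -0.97 ± 0.098, adjusted p = 1.74e-06). The number of clock genes called higher was 5 without SD-NS replicate 6, 7 without SD-NS replicate 7, 6 without HFD-NS replicate 16 and 7 with SD-NS replicate 7 and HFD-NS replicate 13 left out, where Arntl too was not called (adjusted p = 0.0932). The labels used here give no time of sampling, and its part in this pattern was not tested.

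**Figure D5:**
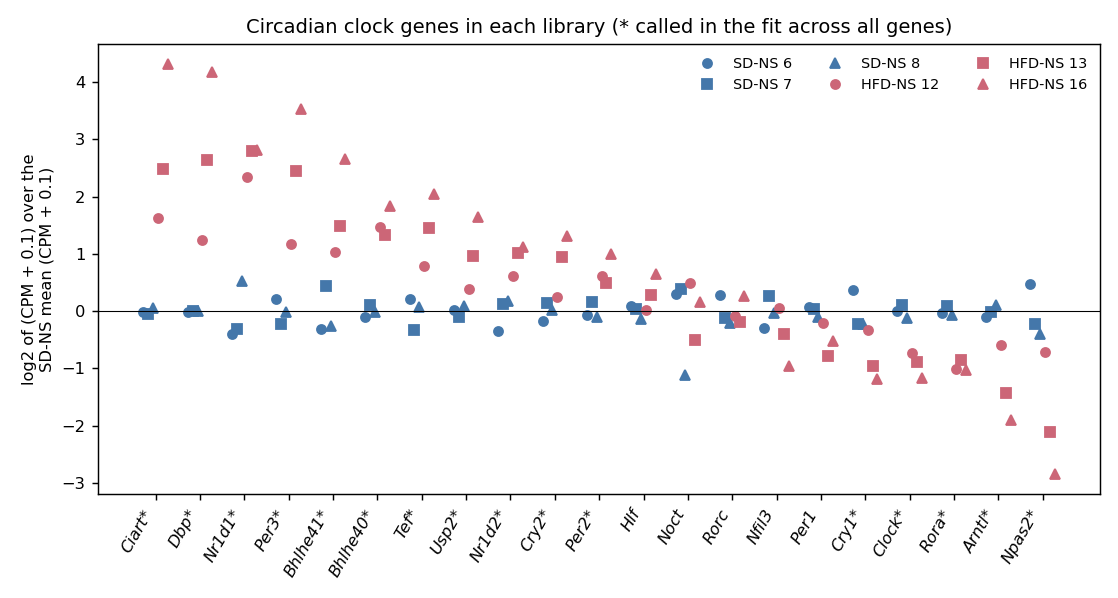
log2 of each library's level over the SD-NS mean (0.1 CPM added to both) for the 21 tested clock genes, SD-NS in blue and HFD-NS in red, with asterisks on genes that were called. For Ciart, Dbp and Per3, HFD-NS replicate 16 is highest and replicate 12 lowest of the group, and for Arntl and Npas2 that order is turned around.

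Stress response genes rose more often than they fell. Of 30 tested members of the list "Unfolded protein and integrated stress response", 14 rose (46.7%) and 3 fell (10%), with a median log2 fold change of 0.65. Sdf2l1, an endoplasmic reticulum chaperone component, was at 4.53, 22.2 and 9.56 CPM in SD-NS and 67.8, 54.5 and 30.1 CPM in HFD-NS. HFD-NS replicate 16 was nearest to SD-NS replicate 7, without overlap (log2 fold change 2.11 ± 0.52, adjusted p = 0.0119). Its log2 fold change was 2.98 without SD-NS replicate 7, and the call was lost in a fit of the 6 libraries alone (adjusted p = 0.0783). Manf, a secreted protein of the same response, was at 46.1, 115 and 65 CPM in SD-NS and 276, 226 and 138 CPM in HFD-NS (log2 fold change 1.5 ± 0.33, adjusted p = 0.00662), and its call was lost in that fit too (adjusted p = 0.0738). The number of rises was 8 in the fit of the 6 libraries alone, 7 without SD-NS replicate 6 and 9 without SD-NS replicate 8.

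A target element of CHOP and ATF4, with letters TGATGNAA on either strand, lay in 6 of 28 promoters of that list (21.4%, against 4.24% of all genes and 2.75% of tested genes). A pair of its holders that moved in opposite directions is printed, with the element in capitals: Asns at chr6:7693210-7693277 on the minus strand, and Chac1 at chr2:119351004-119351101 on the plus strand of GRCm38.p6, where the element lies on the opposite strand.
Asns: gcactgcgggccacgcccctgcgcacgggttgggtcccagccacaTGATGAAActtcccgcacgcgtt
Chac1: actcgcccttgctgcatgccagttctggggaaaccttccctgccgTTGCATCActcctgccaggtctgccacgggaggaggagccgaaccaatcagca
Asns, asparagine synthetase, was at 1.33, 6.42 and 4.22 CPM in SD-NS and 0, 0.372 and 0.316 CPM in HFD-NS. HFD-NS held almost none (log2 fold change -3.94 ± 0.92, adjusted p = 0.00459), and the log2 fold change was -3.32 without SD-NS replicate 7, which held the most. Chac1, which degrades glutathione, was at 0.266, 0.778 and 0.563 CPM in SD-NS and 2.34, 1.74 and 2.53 CPM in HFD-NS (log2 fold change 2.11 ± 0.59, adjusted p = 0.0108), a call lost without SD-NS replicate 6 (adjusted p = 0.0819). Both genes were named by a rule that requires groups without overlap.

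Cytosolic ribosomal protein genes fell or were not called. Of 56 tested members of the list "Cytosolic ribosomal proteins", 0 rose (0%) and 44 fell (78.6%), with a median log2 fold change of -0.39. Rpl10a, a protein of the large subunit, was at 64.4, 63.8 and 69.5 CPM in SD-NS and 39.9, 35.5 and 42.1 CPM in HFD-NS (log2 fold change -0.75 ± 0.1, adjusted p = 4.4e-05). The values of Rpl12 were 204, 205 and 209 CPM in SD-NS and 124, 123 and 138 CPM in HFD-NS (log2 fold change -0.69 ± 0.11, adjusted p = 0.000157). Changes in both genes were modest in size and uniform across libraries. The number that fell was 29 on recomputed TPM and 25 with SD-NS replicate 7 and HFD-NS replicate 13 left out.

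Genes that differ by sex in liver varied between the HFD-NS libraries. Male-biased genes counted 1 higher (8.33%) and 4 lower (33.3%) among 12 tested members (median log2 fold change -1.11), and female-biased genes 4 higher (22.2%) and 2 lower (11.1%) among 18 tested members (median log2 fold change -0.38). The male-biased falls numbered 1 without replicate 7 of SD-NS or replicate 13 or 16 of HFD-NS, 2 without SD-NS replicate 6, without HFD-NS replicate 12 or without the low-count filter, and 0 with SD-NS replicate 7 and HFD-NS replicate 13 both left out. Female-biased rises numbered 2 without SD-NS replicate 6, in a fit of the 6 libraries alone and with both of those libraries left out, and falls 1 without replicate 7 of SD-NS or replicate 12 or 16 of HFD-NS. Cyp2b9, a female-biased steroid hydroxylase, was at 2, 1.17 and 2.25 CPM in SD-NS and 151, 464 and 192 CPM in HFD-NS, lowest in HFD-NS replicate 12 and highest in replicate 13 (log2 fold change 7.22 ± 1.2, adjusted p = 0.00129). Without HFD-NS replicate 13 its log2 fold change was 6.57. Acot3, a female-biased gene that is also on the peroxisomal list, fell. It was at 199, 193 and 138 CPM in SD-NS and 34.4, 67 and 44.4 CPM in HFD-NS (log2 fold change -1.87 ± 0.39, adjusted p = 0.00518). Slco1a1, a male-biased uptake carrier named after its values were seen, was at 467, 708 and 446 CPM in SD-NS and 259, 11.4 and 162 CPM in HFD-NS. HFD-NS replicate 13 held the least, and the difference did not pass the test (log2 fold change -1.9 ± 0.88, adjusted p = 0.136). Of 22 tested major urinary protein genes, pheromone carriers secreted by male liver, 0 were called by edgeR, with a median log2 fold change of -1.02. Of them, 3 were lower at an unadjusted p under 0.05, 2 were called lower by DESeq2 and 1 by limma-voom. With SD-NS replicate 7 and HFD-NS replicate 13 left out the median turned to 0.24. Mup7, also named after its values were seen, was at 569, 2644 and 660.1 CPM in SD-NS and 337, 30.4 and 273 CPM in HFD-NS, lowest in the same library (log2 fold change -2.6 ± 1.3, adjusted p = 0.159). Serpina1e, a secreted protease inhibitor with close gene copies, was at 3778, 7445 and 3583 CPM in SD-NS and 306, 59.8 and 387 CPM in HFD-NS, with no overlap (log2 fold change -4.3 ± 1, adjusted p = 0.0118). Its call was lost with SD-NS replicate 7 and HFD-NS replicate 13 left out (adjusted p = 0.0868). Cyp2u1 ran the other way among male-biased genes, at 3.99, 2.72 and 1.69 CPM in SD-NS and 14.1, 7.95 and 13.2 CPM in HFD-NS (log2 fold change 1.97 ± 0.41, adjusted p = 0.00221).

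Drug metabolism genes were mixed, with 9 higher (28.1%) and 7 lower (21.9%) among 32 tested members (median log2 fold change 0.26). The falls numbered 4 without SD-NS replicate 6, 4 without HFD-NS replicate 16 and 4 on recomputed TPM, and the rises 5 with SD-NS replicate 7 and HFD-NS replicate 13 left out. Cyp3a11 (chr5:145791417-145816664), a major drug oxidase with close copies in the genome, was at 8174, 6675 and 6100.4 CPM in SD-NS and 1939, 1890.1 and 1328 CPM in HFD-NS (log2 fold change -2.02 ± 0.33, adjusted p = 0.000965). Ces2a, a carboxylesterase, was at 325, 271 and 271 CPM in SD-NS and 84.4, 81.7 and 104 CPM in HFD-NS (log2 fold change -1.68 ± 0.18, adjusted p = 1.26e-05). Por, which passes electrons to all microsomal cytochromes P450, was at 353, 348 and 330.5 CPM in SD-NS and 121, 202 and 203 CPM in HFD-NS, lowest in HFD-NS replicate 12 (log2 fold change -0.97 ± 0.19, adjusted p = 0.00163). Cyp2a5, a coumarin hydroxylase, was at 154, 160.2 and 189 CPM in SD-NS and 259.8, 586 and 639 CPM in HFD-NS, with replicate 12 nearest to SD-NS (log2 fold change 1.56 ± 0.36, adjusted p = 0.00802). It was not called with SD-NS replicate 7 and HFD-NS replicate 13 left out (adjusted p = 0.0828).

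Genes expressed around the central vein rose or were not called. Of 19 tested members of the list "Pericentral hepatocyte genes", 9 rose (47.4%) and 0 fell (0%), with a median log2 fold change of 0.68. Slc13a3, a dicarboxylate carrier, was at 3.46, 5.05 and 5.34 CPM in SD-NS and 30.6, 32.5 and 21.6 CPM in HFD-NS (log2 fold change 2.66 ± 0.33, adjusted p = 7.19e-05). Glul, glutamine synthetase (named after its values were seen), was at 839, 940.0 and 847 CPM in SD-NS and 1785, 1838 and 1615 CPM in HFD-NS (log2 fold change 1.0 ± 0.15, adjusted p = 9.31e-05). Periportal and amino acid genes counted 4 higher (21.1%) and 6 lower (31.6%) among 19 tested members (median log2 fold change -0.29). There were 4 rises and 3 falls without HFD-NS replicate 12 and without the low-count filter, 2 and 5 without replicate 6 of SD-NS or 16 of HFD-NS, 2 and 4 without SD-NS replicate 7, and 2 and 3 with SD-NS replicate 7 and HFD-NS replicate 13 left out. Asl, a urea cycle enzyme, was at 896, 673 and 741 CPM in SD-NS and 309, 401 and 459 CPM in HFD-NS (log2 fold change -0.98 ± 0.23, adjusted p = 0.00673), and Sdsl, a serine dehydratase-like enzyme, was at 23.2, 15.9 and 12.4 CPM in SD-NS and 4.67, 5.46 and 4.64 CPM in HFD-NS (log2 fold change -1.83 ± 0.24, adjusted p = 2.59e-05). Otc, an earlier enzyme of that cycle, was at 489, 454 and 391 CPM in SD-NS and 597, 622 and 739 CPM in HFD-NS (log2 fold change 0.55 ± 0.14, adjusted p = 0.00614), and Aldh1b1, a mitochondrial aldehyde dehydrogenase, was at 14.8, 7.39 and 13.8 CPM in SD-NS and 40.8, 56.5 and 39.8 CPM in HFD-NS (log2 fold change 1.92 ± 0.21, adjusted p = 1.36e-05). Asl and Otc, both of the urea cycle, had opposite signs.

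Secreted defence proteins were counted in the same way. Acute phase genes gave 6 higher (25%) and 2 lower (8.33%) among 24 tested members (median log2 fold change 0.12), and complement and coagulation genes 6 higher (17.6%) and 7 lower (20.6%) among 34 tested members (median log2 fold change -0.08), shares of the latter not far from those over all genes. The complement and coagulation falls numbered 2 without SD-NS replicate 7, without HFD-NS replicate 12 or without the low-count filter, 3 without replicate 8 of SD-NS or 16 of HFD-NS, and 1 with SD-NS replicate 7 and HFD-NS replicate 13 left out, while recomputed TPM gave 10 rises and 3 falls. The acute phase falls numbered 1 without replicate 8 of SD-NS or any 1 of the HFD-NS libraries. Saa4, a constitutive serum amyloid A of lipoproteins, was at 129.5, 156 and 158 CPM in SD-NS and 510.0, 748 and 712 CPM in HFD-NS (log2 fold change 2.15 ± 0.22, adjusted p = 1.36e-05). Steap4, a metalloreductase induced by inflammation, was at 47.1, 41.8 and 52 CPM in SD-NS and 191, 303 and 163 CPM in HFD-NS (log2 fold change 2.22 ± 0.4, adjusted p = 0.00205). Mbl2, a mannose-binding lectin, rose from 278, 299 and 241 CPM in SD-NS to 437, 497 and 463 CPM in HFD-NS (log2 fold change 0.77 ± 0.13, adjusted p = 0.000193), and C8a, a part of the membrane attack complex, was at 860.1, 1159.5 and 955 CPM in SD-NS and 523, 499 and 508 CPM in HFD-NS (log2 fold change -0.96 ± 0.2, adjusted p = 0.00308).

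Smaller lists were counted as well. Thyroid hormone targets and transporters gave 4 higher (50%) and 2 lower (25%) among 8 tested members (median log2 fold change 0.74), and Dio1, the deiodinase of liver, was at 57.2, 86.1 and 45.3 CPM in SD-NS and 143, 142 and 124 CPM in HFD-NS (log2 fold change 1.11 ± 0.27, adjusted p = 0.00958). Targets of p53 gave 4 higher (25%) and 1 lower (6.25%) among 16 tested members (median log2 fold change 0.38), with 2 rises without replicate 6 or 7 of SD-NS or 13 of HFD-NS. Ccng1, cyclin G1, was at 36.2, 36.9 and 42.8 CPM in SD-NS and 86.1, 81.2 and 69 CPM in HFD-NS (log2 fold change 1.04 ± 0.12, adjusted p = 7.61e-06). Cdkn1a, the cell cycle inhibitor p21 and the one that fell, was at 127, 131 and 129.7 CPM in SD-NS and 91.7, 57.9 and 39.7 CPM in HFD-NS (log2 fold change -1.04 ± 0.33, adjusted p = 0.0398). HFD-NS replicate 16 held the least Cdkn1a, and the call was lost without SD-NS replicate 6 (adjusted p = 0.0849), 7 (0.0968 as adjusted p) or 8 (0.0797 as adjusted p), without HFD-NS replicate 13 (adjusted p = 0.113) or 16 (0.122 as adjusted p), on recomputed TPM (adjusted p = 0.0719) and with the 6 libraries alone (adjusted p = 0.0703).

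The largest changes among genes that averaged at least 1 CPM included some with no list. Themis, a signalling protein known from thymocytes, was at 0.133, 0.389 and 1.69 CPM in SD-NS and 21.6, 22.1 and 15.5 CPM in HFD-NS (log2 fold change 5.08 ± 0.54, adjusted p = 1.21e-05). No HFD-NS library was near SD-NS, and the log2 fold change was 4.38 without SD-NS replicate 6 and 6.27 without SD-NS replicate 8. Slc22a27, an organic anion transporter, was at 0.799, 1.94 and 0.844 CPM in SD-NS and 14.5, 32.4 and 19.3 CPM in HFD-NS (log2 fold change 4.2 ± 0.85, adjusted p = 0.00434). Myom1, a structural protein of the muscle M-band, was at 14.9, 18.1 and 17.2 CPM in SD-NS and 0.817, 1.99 and 1.05 CPM in HFD-NS (log2 fold change -3.69 ± 0.43, adjusted p = 1.56e-05). Itga2, an integrin subunit that binds collagen, was at 4.93, 4.67 and 3.09 CPM in SD-NS and 0.234, 0.497 and 0.422 CPM in HFD-NS (log2 fold change -3.44 ± 0.46, adjusted p = 2.3e-05). Cib3, a calcium-binding protein, was at 6.26, 4.67 and 5.63 CPM in SD-NS and 0.584, 0.497 and 0.632 CPM in HFD-NS (log2 fold change -3.24 ± 0.44, adjusted p = 3.89e-05). The rule that picked these genes requires groups without overlap.

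Markers of tissues other than liver were examined as well. Of the adipocyte markers, Lep had no count in any of the 6 libraries, and Adipoq, Plin1 and Retn were at most 0.234 CPM. The whole list summed to 6.75 to 9.45 CPM in SD-NS and 22.7 to 31.8 CPM in HFD-NS. Only 2 of its 6 members were tested, and both rose (100%, against 12% over all genes). Fabp4, a fatty acid carrier that macrophages also express, was at 9.45, 6.61 and 6.75 CPM in SD-NS and 22, 16.8 and 16.3 CPM in HFD-NS (log2 fold change 1.23 ± 0.33, adjusted p = 0.0126), a call lost without SD-NS replicate 7 (adjusted p = 0.0616). Cfd, the protease adipsin, was at 0, 0.389 and 0 CPM in SD-NS and 9.57, 5.59 and 14.8 CPM in HFD-NS (log2 fold change 6.14 ± 1.2, adjusted p = 0.00196), with a log2 fold change of 5.34 without SD-NS replicate 6 and 9.11 without SD-NS replicate 7. The list of pancreas, intestine, muscle and kidney markers summed to 73.7 to 101 CPM in SD-NS and 30.9 to 39.5 CPM in HFD-NS, without overlap. Pancreatic Pnlip had 23 counts in SD-NS replicate 6 (3.06 CPM) and 0 in the other 5 libraries. Lgals4, an epithelial galectin of intestine, was at 86.3, 71 and 86.3 CPM in SD-NS and 27.9, 34.9 and 35.8 CPM in HFD-NS and fell (log2 fold change -1.3 ± 0.22, adjusted p = 0.000658), and it made up most of that sum in every library. The part of such cells in the results above was not tested.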

How the data were processed

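Total RNA from liver was prepared by TRIzol-chloroform extraction and its polyadenylated part sequenced, per the labels' protocols. Tools named in the submitters' processing notes are STAR 2.7.10b, featureCounts 2.0.1, Bowtie 1.3.1 and Trim Galore 0.6.10, with build mm39. The authors deposited raw counts of exonic reads per gene. Per the file headers these counts ignore strand and give a read to every gene it overlaps, so overlapping genes and close copies share reads. A further 15 columns of TPM were not used, since their names could not be tied to these 6 libraries.

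Of 26264 genes, 13189 passed filterByExpr. They were fitted together over all 15 libraries in R 4.3.3 (edgeR 4.0.16, TMM scaling, robust quasi-likelihood test, common biological coefficient of variation 0.134). Benjamini-Hochberg adjustment covered all genes tested, and calls were made at an adjusted p below 0.05. TPM was recomputed from counts and exon lengths. Motifs were searched on both strands of RefSeq promoters of GRCm38.p6.

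The members and gene lists were chosen with earlier results of these data known. Named genes were called, had a mean of 1 CPM or more in the 6 libraries and showed no overlap between the groups: the 15 largest rises and 15 largest falls, and up to 4 called members of each list per direction. Defining markers, clock genes and a few fixed genes are named whatever their result. Glul, Slco1a1 and Mup7 were named after their values were seen. Alternatives tried were DESeq2 1.42.0, limma-voom (limma 3.58.1), RLE size factors, tests without the low-count filter, a fit of the 6 libraries alone, recomputed TPM, a ratio of mean CPM, and leaving out each library. Some genes are not reported here.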

Additional observations from a re-analysis of the deposited data

How the results depend on the processing

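The genes open to naming include 250 called ones, among them Glul, which was named after its values were seen. None of the 250 changed direction under the alternatives run. Of these, 166 kept their call whichever 1 library was left out and 84 lost it at least once. RLE size factors kept 244, DESeq2 241, limma-voom 240, no low-count filter 223, recomputed TPM 216 of 249, and a fit of the 6 libraries alone 226 of 241. Under a ratio of mean CPM plus 0.5, 39 moved by more than their replicate spread. A setting of 2 libraries a side, without SD-NS replicate 7 and HFD-NS replicate 13, was chosen after the data had been seen, and kept 159. It gave 1943 calls, 865 higher and 1078 lower. In it, rises numbered 9 in antigen presentation, 10 among interferon-stimulated genes, 4 among cytokines, 4 among monocyte markers, 2 in matrix and 7 in the clock, and falls numbered 25 among ribosomal proteins, 7 in the fasted-liver list and 7 among peroxisomal genes. Recomputed TPM gave 1098 genes lower in all and 29 ribosomal ones. The fit of the 6 libraries alone gave 13 rises among monocyte markers, 20 in matrix and 8 in the stress response. Leaving out each library in turn gave 1054 to 1399 genes higher, with 6 to 12 cytokines, 6 to 12 matrix genes, 7 to 17 stress response genes and 5 to 11 clock genes among them. Medians of the triglyceride, lipid droplet, growth hormone, acute phase, complement and endothelial lists lay near 0 and changed sign in at least 1 setting. Settings with fewer libraries test with fewer samples. The cause of the other shifts was not tested.

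No paired analysis was possible because the groups share no replicate numbers. The alternative with the deposited TPM was not run, since its column names could not be tied to these libraries. SD-NS replicate 8 had the fewest counts (3873903), so genes near 1 CPM rest on few reads there.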
